A study of Canis lupus familiaris with 28 samples.

Results

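Of 29884 dog transcripts counted, 16 met a rule for a change of a set size with YAP5SA+S94A. The rule limited the difference in the other manipulated groups of the same experiment but did not require it to be absent. Among confluent cells of experiment 2, their level with YAP5SA+S94A lay at least 0.7 from wild type on a log2 scale, while the double p190 knockdown and the libraries labelled YAP5SA both lay within 0.3 of wild type. A last term asked that confluent p190A and p190B knockdown cells of experiment 1 differ by less than 0.7. The scale, written L here, is log2 of the group mean CPM plus 1, and CPM are transcript counts scaled to the same total in every library. The members were chosen by these measured levels. Of the 16 members, 9 were raised and 7 were lowered with YAP5SA+S94A.

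The cells were TR-T10, a dog line carrying a tetracycline repressor, so that the introduced shRNAs and YAP constructs are induced with doxycycline. Experiment 2 held confluent cells in 4 groups: cells with shRNAs against both p190A and p190B that also expressed YAP5SA+S94A (3 libraries), cells with both shRNAs alone, called the double knockdown (3 libraries), the libraries labelled YAP5SA (2 distinct libraries), and wild type (3 libraries). Experiment 1 held 2 libraries in each of 8 groups: the double knockdown, the p190A knockdown, the p190B knockdown and wild type, each confluent and sub-confluent. The YAP5SA+S94A cells therefore carried both shRNAs, and their closest match is the double knockdown, although the rule measures them against wild type. For the libraries labelled YAP5SA one label names YAP5SA expression only and another adds both shRNAs, so whether these cells carried the shRNAs was not settled. Knockdown was induced with doxycycline at 4 µg/ml for 3 days, and cells were replated for 3 to 5 days before harvest, per the labels' protocols. The p190 shRNA lines were made with retrovirus and selected with hygromycin, puromycin or both, the YAP lines were made with lentivirus and selected with G418, and in double knockdown cells the YAP construct and the shRNAs are induced together. The labels do not say whether wild-type cells received doxycycline or whether replicates were separate cultures. All p-values therefore measure the spread between these libraries, which may be technical.

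p190A (ARHGAP35) and p190B (ARHGAP5) are a pair of related GTPase-activating proteins. YAP is a coactivator that has no DNA-binding domain of its own and reaches most of its target genes through TEAD transcription factors. In epithelial cells, crowding activates LATS kinases, which phosphorylate YAP and keep it out of the nucleus. YAP5SA has the LATS target serines replaced by alanine and escapes that control, and the S94A change disrupts binding to TEAD. A group of YAP5SA+S94A cells is thus used to ask which effects of active YAP need TEAD. The files give Ensembl identifiers with no gene names beside them, and 0 of those identifiers were found in a RefSeq table of 43286 dog genes, so no member has a gene name or a role here. The members are called by direction and rank of the difference, raised 1 to raised 9 and lowered 1 to lowered 7, and the TR-T10 cell type and the targeted genes were not checked against markers.

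The 27 distinct libraries held 10706716 to 17215544 counts assigned to single transcripts. The YAP5SA+S94A libraries held 12316084 to 15192084 counts over 15577 to 15812 detected transcripts, and the wild-type libraries of experiment 2 held 13187105 to 15136573 counts over 16043 to 16264 detected transcripts. Replicates 1 and 2 of the YAP5SA-labelled group held identical values in every row and were counted as 1 sample, which leaves n = 2 for that group.

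The rule kept few of the transcripts that differed from wild type. With YAP5SA+S94A, 1181 transcripts (3.95%) lay at least 0.7 from wild type, 344 above it (1.15%) and 837 below it (2.80%). In 74 of these the double knockdown was within 0.3 of wild type, and in 22 of the 74 the YAP5SA-labelled libraries were as well. The p190A and p190B term removed 6 more, which left 16, or 1.35% of the 1181. When the same rule was turned on the other groups, 158 transcripts lay apart in the YAP5SA-labelled libraries alone (97 raised, 61 lowered), and 130 lay apart in the double knockdown alone (61 raised, 69 lowered). Those 3 counts share the wild-type libraries.

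**Figure D1:**
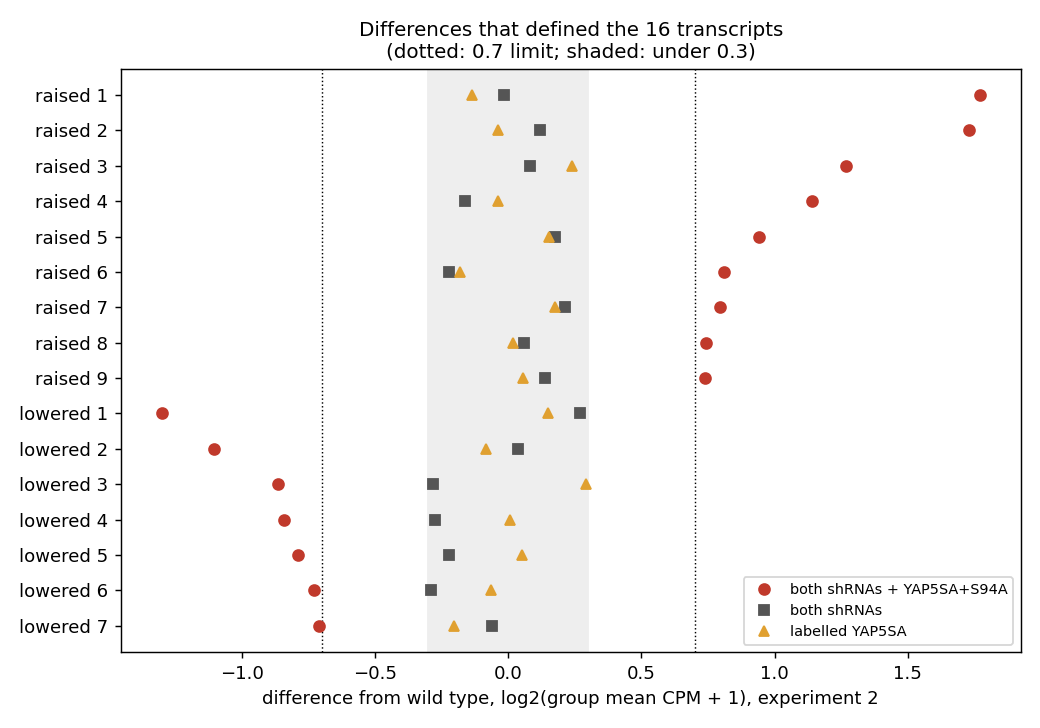
Difference in L from wild type of experiment 2 (horizontal axis, log2 scale) for each of the 16 members (rows) in the YAP5SA+S94A, double knockdown and YAP5SA-labelled groups. The YAP5SA+S94A points run from 0.74 to 1.77 in the raised members and from -0.71 to -1.30 in the lowered ones, and the points of the other 2 groups stay within 0.3 of zero because the rule asked for it.

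Many raised members had few counts. CPM are not scaled by transcript length, so they rank members by counts only. At low levels the added 1 makes a large ratio into a small difference in L. Raised 6 averaged 0.0416 CPM in the double knockdown and 0.214 CPM in wild type of experiment 2, a difference in L of -0.22. Of the 9 raised members, 6 had every group mean of experiment 2 below 5 CPM, and 3 were expressed at over 10 CPM in all groups. Of the 7 lowered members, 1 stayed below 5 CPM and 5 reached at least 10 CPM. The median difference in L from wild type was 0.94 in the raised members and -0.84 in the lowered ones, against 0 over all transcripts. Against the double knockdown the medians were 1.03 in the raised members and -0.58 in the lowered ones. These values chose the members and carry no test. In bulk RNA, fewer cells expressing a transcript and less of it per cell cannot be told apart.

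Raised 1 showed the widest gap among the raised members. It had 3.45, 2.50 and 2.27 CPM (49, 38 and 28 counts) in the YAP5SA+S94A libraries, 0.0596, 0.0751 and 0.125 CPM in the double knockdown, no count in either YAP5SA-labelled library, and 0.0661, 0.152 and 0.0746 CPM in wild type. Each library outside YAP5SA+S94A thus held at most 2 counts, and the difference in L was 1.77. The absence of counts in the YAP5SA-labelled group allows up to 0.107 CPM there, taking 3 counts over the group as the limit. Experiment 1 gave this transcript 1 count in its 16 libraries, in confluent wild-type cells.

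Raised 2 had 3.31, 2.304 and 3.98 CPM in the YAP5SA+S94A libraries, 0.596, 0.225 and 0.312 CPM in the double knockdown, 0.402 and 0.0638 CPM in the YAP5SA-labelled libraries, and 0.198, 0.227 and 0.373 CPM in wild type. Its counts were 47, 35 and 49 with YAP5SA+S94A and no more than 10 in any other library of experiment 2. In experiment 1 it was highest in sub-confluent wild-type cells, at 0.655 and 0.215 CPM.

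Raised 3 had 3.52, 3.49 and 3.65 CPM with YAP5SA+S94A, 1.13, 1.05 and 0.811 CPM in the double knockdown, 1.13 and 1.34 CPM in the YAP5SA-labelled libraries and 0.859, 1.21 and 0.596 CPM in wild type. The YAP5SA+S94A libraries were close together and apart from all others of the experiment. Sub-confluent wild-type cells of experiment 1 came nearest to them, at 3.11 and 1.65 CPM.

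Raised 4, 5 and 6 lay between 0.731 and 1.62 CPM in the YAP5SA+S94A libraries. Raised 4 averaged 1.52 ± 0.0939 CPM there, against 0.141 ± 0.0616 CPM in wild type (SD, n = 3 each), and it had 1 count in all in the double knockdown. Raised 5 had 12, 18 and 9 counts with YAP5SA+S94A and no count in the wild-type libraries of experiment 2, which allows up to 0.0719 CPM. It had 4, 2 and 0 counts in the double knockdown and 2 and 1 in the YAP5SA-labelled libraries. In experiment 1 the double knockdown held 1 and 5 counts of it at confluence and 6 and 1 in sub-confluent cells. Every other library of experiment 1 held at most 2. Raised 6 had 11, 20 and 16 counts with YAP5SA+S94A, against 4, 3 and 2 counts in wild type, and in the double knockdown it had 2 counts in all. At such counts 1 read moves a value visibly, and these 3 differences rest on 39 to 63 counts in the YAP5SA+S94A group.

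Raised 7 (ENSCAFT00000022808) was the first of the 3 raised members with high counts. It had 365, 372 and 355 CPM with YAP5SA+S94A, 249, 242 and 239 CPM in the double knockdown, 228 and 246 CPM in the YAP5SA-labelled libraries and 197, 216 and 216 CPM in wild type. Within experiment 2 the YAP5SA+S94A libraries did not overlap the others, while a sub-confluent wild-type library of experiment 1 reached 350.0 CPM. The difference in L from wild type was 0.79.

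Raised 8 (ENSCAFT00000018377) had 138, 139 and 140.4 CPM with YAP5SA+S94A, 87.5, 86.9 and 85.0 CPM in the double knockdown, 86.0 and 81.9 CPM in the YAP5SA-labelled libraries and 79.7, 84.5 and 84.5 CPM in wild type. The 8 other libraries of the experiment spanned less than 10 CPM, and YAP5SA+S94A lay outside that band in all 3 of its libraries. Raised 9 had the most counts of all members, with 6307, 6115 and 6089 CPM with YAP5SA+S94A, 4127, 4074 and 4003 CPM in the double knockdown, 3878 and 3815 CPM in the YAP5SA-labelled libraries, and 3515, 3853 and 3719 CPM in wild type. Raised 8 and raised 9 had the same rounded difference in L, 0.74, just inside the limit.

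**Figure D2:**
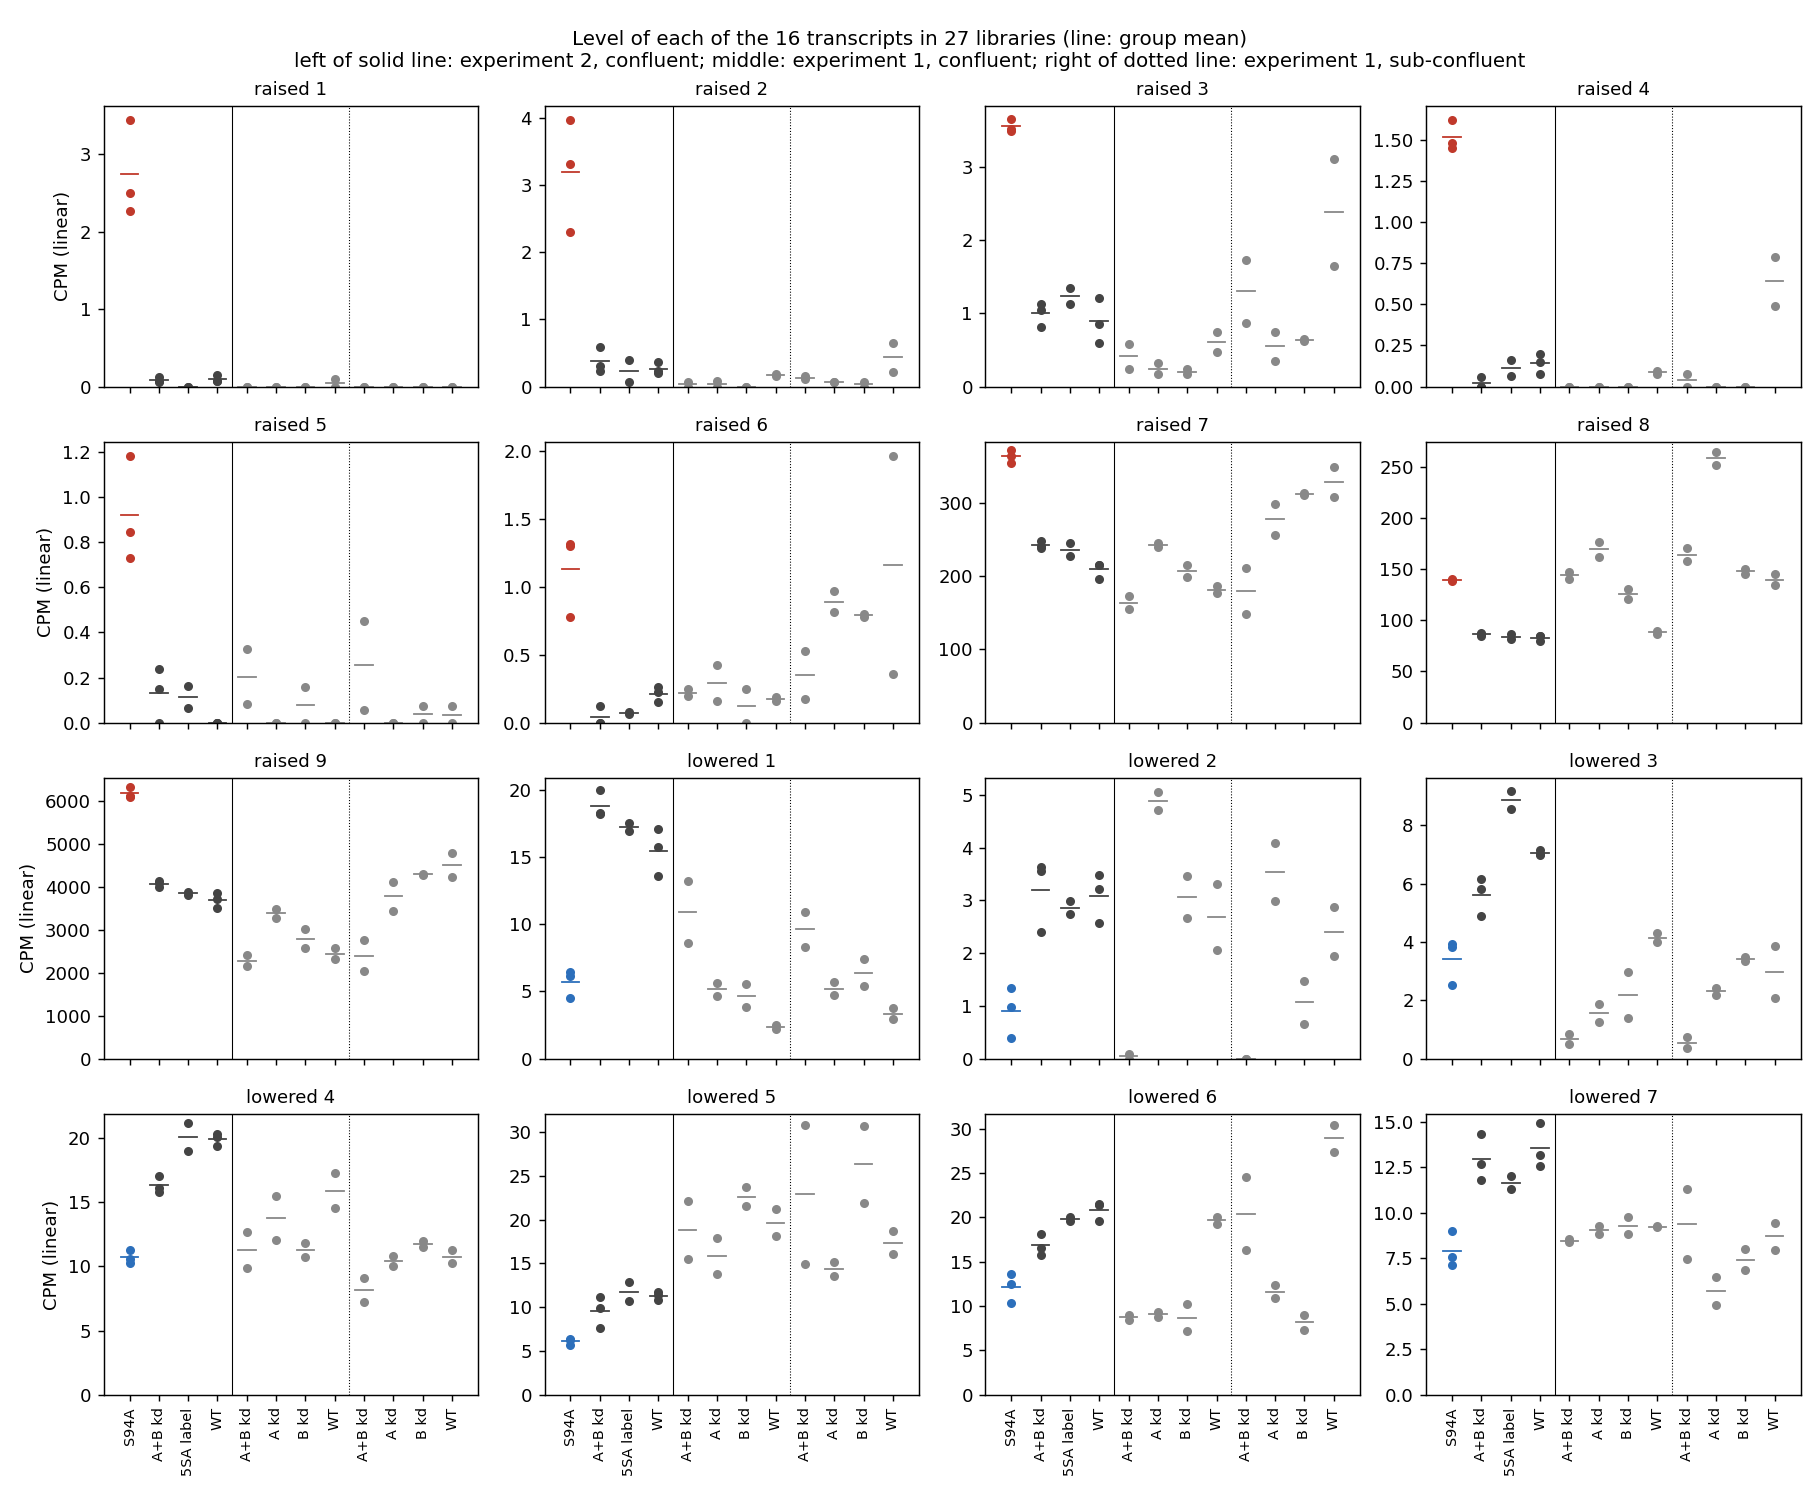
CPM of each member by group, 1 panel per transcript (vertical axis CPM, starting at 0). Dots are libraries and short lines are group means, with the 4 groups of experiment 2 on the left and the 8 groups of experiment 1 on the right. The YAP5SA+S94A dots of raised 1 lie between 2.27 and 3.45 CPM with all other libraries near 0, while those of lowered 1 lie between 4.51 and 6.41 CPM, above the confluent wild-type cells of experiment 1.

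Lowered 1 (ENSCAFT00000003832) had the widest gap among the lowered members, a difference in L of -1.30. It had 4.51, 6.12 and 6.41 CPM with YAP5SA+S94A, 20.0, 18.2 and 18.2 CPM in the double knockdown, 16.9 and 17.5 CPM in the YAP5SA-labelled libraries and 13.5, 15.7 and 17.1 CPM in wild type. Each YAP5SA+S94A library was below every other library of experiment 2. In experiment 1 the confluent wild-type libraries had 2.52 and 2.20 CPM, lower than any YAP5SA+S94A library.

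Lowered 2 had 1.34, 0.395 and 0.974 CPM with YAP5SA+S94A, 3.63, 2.40 and 3.56 CPM in the double knockdown, 2.98 and 2.74 CPM in the YAP5SA-labelled libraries and 2.58, 3.49 and 3.21 CPM in wild type. The YAP5SA+S94A values came from 19, 6 and 12 counts. Lowered 3 had 3.94, 3.82 and 2.52 CPM with YAP5SA+S94A, 4.88, 6.16 and 5.80 CPM in the double knockdown, 9.17 and 8.55 CPM in the YAP5SA-labelled libraries and 7.003, 6.98 and 7.16 CPM in wild type. For lowered 3 the double knockdown lay between YAP5SA+S94A and wild type, and its lowest library was less than 1 CPM above the highest YAP5SA+S94A library.

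Lowered 4 (ENSCAFT00000003913) had 10.3, 11.3 and 10.6 CPM with YAP5SA+S94A, 15.8, 17.0 and 16.1 CPM in the double knockdown, 19.0 and 21.2 CPM in the YAP5SA-labelled libraries and 20.3, 19.4 and 20.1 CPM in wild type. The double knockdown again lay between the YAP5SA+S94A libraries and wild type without overlap. Lowered 6 showed the same order, with 13.6, 10.3 and 12.5 CPM with YAP5SA+S94A, 18.2, 16.5 and 15.8 CPM in the double knockdown, 20.0 and 19.6 CPM in the YAP5SA-labelled libraries and 21.3, 21.5 and 19.5 CPM in wild type.

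Lowered 5 averaged 6.13 ± 0.357 CPM with YAP5SA+S94A, against 11.3 ± 0.503 CPM in wild type (SD, n = 3 each). It was the single lowered member whose YAP5SA+S94A libraries were below all 24 other libraries of both experiments. This held for 0.151% of all transcripts, those with no count included. Lowered 7 averaged 7.91 ± 0.980 CPM with YAP5SA+S94A, against 13.6 ± 1.22 CPM in wild type (SD, n = 3 each), and its difference in L of -0.71 was just inside the limit. In experiment 1 its group means ran from 5.69 to 9.38 CPM, with 9.22 CPM in confluent wild type and 8.47 CPM in the confluent double knockdown. The YAP5SA+S94A mean lay inside that range.

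Inside experiment 2 all 9 raised members had their 3 YAP5SA+S94A libraries above the 8 other distinct libraries, against 1.76% of all transcripts. All 7 lowered members had them below those 8, against 2.16% of all transcripts. The rule used these libraries, so neither count is a result about the members. Over the 24 libraries of both experiments that are not YAP5SA+S94A, 7 of the 9 raised members stood above all of them, against 0.432% of all transcripts. The rule used the 8 libraries of experiment 2 among these 24 and also the confluent single knockdown libraries of experiment 1, so this count is a description. The shares of all transcripts include those with no count, which cannot stand apart, so shares among detected transcripts would be higher. The exceptions were raised 6 and raised 8. Raised 6 reached 1.97 CPM in 1 sub-confluent wild-type library. Its sub-confluent p190A knockdown (0.971 and 0.810 CPM) and p190B knockdown libraries (0.799 and 0.778 CPM) also exceeded its lowest YAP5SA+S94A library (0.775 CPM). Raised 8 reached 265 CPM in a sub-confluent p190A knockdown library. Its confluent double knockdown libraries of experiment 1 (147 and 141 CPM) also lay above its YAP5SA+S94A libraries (138 to 140.4 CPM). So did its confluent p190A knockdown libraries and all its sub-confluent knockdown libraries.

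The replicates gave a look at the same difference in libraries the choice had not used. The rule was applied without replicate 1, 2 or 3 of the YAP5SA+S94A, double knockdown and wild-type groups, and the YAP5SA+S94A minus wild type difference was read in the libraries left out. It chose 9, 12 and 14 raised transcripts without replicates 1, 2 and 3, and all kept their sign in the left-out libraries, where 24.4%, 22.7% and 23.8% of all transcripts were higher with YAP5SA+S94A. There, 7, 8 and 9 of them reached 0.7, against 1.34%, 1.36% and 1.32% of all transcripts. It chose 12, 6 and 10 lowered transcripts, all of which kept their sign, where 32.5%, 33.9% and 32.4% of all transcripts were lower. Of these, 5, 4 and 6 reached 0.7 in size, against 3.06%, 3.26% and 3.35% of all transcripts. All transcripts here include those with no count, which can be neither higher nor lower. Each library of experiment 2 had 15577 to 16264 detected transcripts. Shares among detected transcripts would be higher and were not counted, so the kept signs cannot be judged against these shares. The chosen lists moved with the libraries: 8 of the 9 raised members were chosen in each of these 3 runs, against 5, 2 and 4 of the 7 lowered members without replicates 1, 2 and 3. A single library pair was read each time, the chosen transcripts already differed in the other replicates, and no test was made.

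Members near the limits show how narrow the choice was. The raised member closest to 0.7 had 0.739, and the nearest transcript outside had 0.693. On the lowered side these values were -0.708 inside and -0.671 outside. The largest double knockdown difference among members was 0.289 in size, with 0.302 just outside, and the largest YAP5SA-labelled difference was 0.294, with 0.301 just outside. A further 19 transcripts met the other terms with a YAP5SA+S94A difference between 0.6 and 0.7.

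Experiment 1 was not used to choose the members, apart from the p190A and p190B term, and 7 comparisons in it were tested with edgeR's quasi-likelihood test over 12845 transcripts. All 7 lowered members and 5 of the 9 raised members (raised 3, 6, 7, 8 and 9) passed the filter on low counts. Raised 1, 2, 4 and 5 did not, and they had at most 11 counts in any library of experiment 1. Raised 3 and raised 6 passed mainly through their sub-confluent libraries, where they were high, which favoured lower values in other groups, so their calls are given as values only.

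Raised 7, 8 and 9 fell at confluence in wild-type cells. In this comparison 29.3% of all transcripts tested passed, 14.3% as higher and 15.0% as lower. Raised 3 and raised 6 also passed as lower, but the filter had favoured that direction for them, so no count over the raised members is read from it. Raised 7 had 186 and 177 CPM in confluent wild-type cells and 309 and 350.0 CPM in sub-confluent ones (log2 fold change -0.93, SE 0.135, adjusted p = 7.7e-04 by edgeR). Raised 8 had 89.8 and 86.7 CPM in confluent cells and 145 and 134 CPM in sub-confluent cells (log2 fold change -0.73, SE 0.0938, adjusted p = 4.6e-04 by edgeR). Raised 9 had 2564 and 2313 CPM in confluent cells and 4222 and 4786 CPM in sub-confluent cells (log2 fold change -0.95, SE 0.145, adjusted p = 9.4e-04 by edgeR). The groups did not overlap for any of these 3.

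The other 2 raised members were low. Raised 3 had 0.747 and 0.471 CPM in confluent and 3.11 and 1.65 CPM in sub-confluent wild-type cells (log2 fold change -2.02, SE 0.519, adjusted p = 1.2e-02 by edgeR). Raised 6 had 0.187 and 0.157 CPM in confluent cells and 1.97 and 0.358 CPM in sub-confluent cells (log2 fold change -2.73, SE 0.926, adjusted p = 4.0e-02 by edgeR). Raised 6 rests on 1 library: without sub-confluent wild-type replicate 1 its log2 fold change was -1.10 (adjusted p = 4.8e-01 by edgeR), and it also lost its call without either confluent wild-type library (1.3e-01 and 1.7e-01 by edgeR) and by DESeq2 (adjusted p = 5.5e-02). Raised 3 lost its call without confluent wild-type replicate 2 (1.0e-01 by edgeR) and without sub-confluent replicate 1 (9.8e-02 by edgeR), while raised 7, 8 and 9 were called with each of the 16 libraries left out in turn.

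Among the lowered members, lowered 6 fell at confluence in wild-type cells, with 20.1 and 19.2 CPM in confluent and 30.5 and 27.4 CPM in sub-confluent cells (log2 fold change -0.62, SE 0.192, adjusted p = 2.7e-02 by edgeR). It was the 1 lowered member of 7 called, and the call was lost without any 1 of the 4 libraries compared (adjusted p 8.0e-02 to 1.4e-01 by edgeR). Lowered 4 had 14.6 and 17.3 CPM in confluent cells and 11.3 and 10.2 CPM in sub-confluent cells. Its log2 fold change of 0.50 missed the threshold (adjusted p = 5.6e-02 by edgeR) and passed it with replicate numbers blocked within each density (adjusted p = 2.8e-02 by edgeR).

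In double knockdown cells the density comparison called 1.81% of all transcripts (0.911% higher and 0.895% lower at confluence), 0 of the 5 raised members and 1 of the 7 lowered ones. Of the raised members 1 had an unadjusted p under 0.05, and DESeq2 called 0. That member was raised 3, at a log2 fold change of -1.55 (adjusted p = 1.7e-01 by edgeR), and raised 6 was at -0.60 (adjusted p = 8.0e-01 by edgeR). Raised 7 had 155 and 173 CPM in confluent and 212 and 148 CPM in sub-confluent double knockdown cells, so the groups overlapped (log2 fold change -0.14, adjusted p = 6.3e-01 by edgeR). Raised 9 had 2145 and 2409 CPM in confluent and 2763 and 2029 CPM in sub-confluent double knockdown cells, again with overlap (log2 fold change -0.08, adjusted p = 8.1e-01 by edgeR). Raised 8 had 147 and 141 CPM in confluent and 170.4 and 157 CPM in sub-confluent double knockdown cells (log2 fold change -0.20, adjusted p = 2.8e-01 by edgeR).

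Lowered 6 was the member called there, with 8.96 and 8.45 CPM in confluent and 24.5 and 16.3 CPM in sub-confluent double knockdown cells (log2 fold change -1.23, SE 0.202, adjusted p = 1.1e-02 by edgeR). Without confluent double knockdown replicates 1 and 2 its adjusted p was 6.4e-02 and 1.4e-01 by edgeR, and with only the groups compared in the fit it was 7.1e-02.

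The difference between the 2 density responses, double knockdown minus wild type, was tested directly as an interaction. It was called for 3.27% of all transcripts (2.42% higher and 0.849% lower in the double knockdown) and for raised 7, 8 and 9, each with a higher value in the double knockdown. The log2 differences were 0.79 in raised 7 (SE 0.190, adjusted p = 4.0e-02 by edgeR), 0.53 in raised 8 (SE 0.131, adjusted p = 4.4e-02 by edgeR) and 0.87 in raised 9 (SE 0.203, adjusted p = 3.7e-02 by edgeR). Raised 3 and raised 6 were not called, with log2 differences of 0.47 and 2.13 (adjusted p = 8.0e-01 and 4.8e-01 by edgeR). The 3 calls lie close to the threshold. With each of the 16 libraries left out in turn, raised 7 lost its call in 11 fits, raised 8 in 12 and raised 9 in 11. Over all 16 fits the log2 difference ran from 0.57 to 1.05 in raised 7, from 0.48 to 0.59 in raised 8 and from 0.68 to 1.09 in raised 9. When only the 4 groups compared were fitted, raised 7 (6.2e-02 by edgeR) and raised 8 (6.1e-02 by edgeR) were not called, and without the low-count filter raised 8 was not called either (5.1e-02 by edgeR). No lowered member passed in this comparison, 1 had an unadjusted p under 0.05, and DESeq2 called 0.

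**Figure D3:**
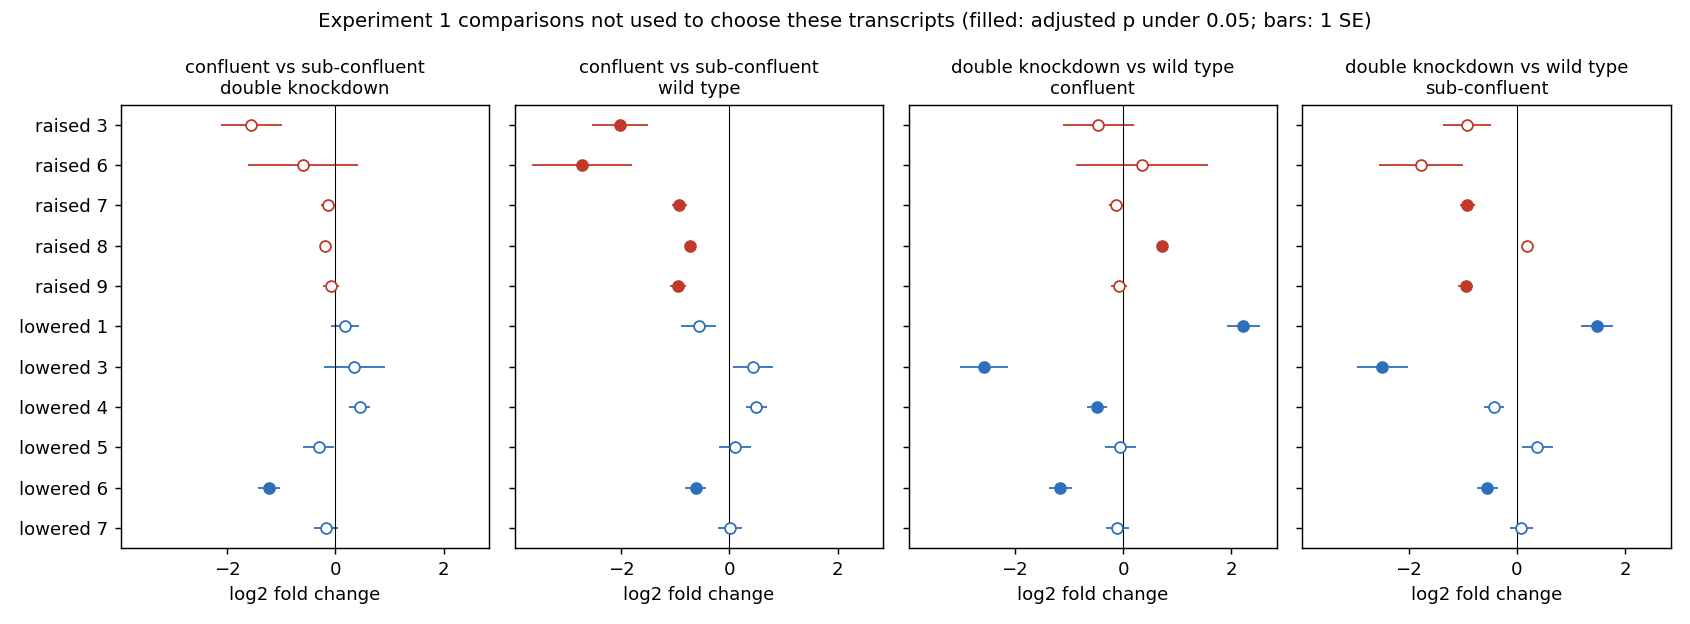
Log2 fold changes of tested members in 4 comparisons of experiment 1 (edgeR; bars are 1 SE, filled points passed adjusted p under 0.05). The panels show confluent against sub-confluent cells in the double knockdown and in wild type, then the double knockdown against wild type at each density. For density in wild type raised 7, 8 and 9 sit at -0.93, -0.73 and -0.95. Raised 3 and raised 6 sit at -2.02 and -2.73, but the filter had favoured that direction for them, and raised 6 rests on 1 library. In the double knockdown no raised member was called. There raised 3 sits at -1.55, raised 6 at -0.60 and raised 7, 8 and 9 at -0.14, -0.20 and -0.08. Lowered 2 is left out because 1 group had 0 counts, and raised 1, 2, 4 and 5 were not tested.

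The double knockdown of experiment 1 was next set against wild type at each density. In confluent cells 43.6% of all transcripts passed (21.9% higher and 21.6% lower in the double knockdown), with 1 of 5 tested raised members and 5 of 7 lowered ones. Raised 8 rose, with 147 and 141 CPM in the double knockdown and 89.8 and 86.7 CPM in wild type (edgeR log2 fold change 0.73, SE 0.0937, adjusted p = 5.2e-05). In sub-confluent cells 34.8% of all transcripts passed (16.7% higher, 18.1% lower), with 2 of the 5 raised members and 4 of the 7 lowered ones. Raised 7 fell there, with 212 and 148 CPM in the double knockdown and 309 and 350.0 CPM in wild type (log2 fold change -0.91, adjusted p = 1.8e-04 by edgeR). Raised 9 fell as well, with 2763 and 2029 CPM in the double knockdown and 4222 and 4786 CPM in wild type (log2 fold change -0.95, adjusted p = 2.4e-04 by edgeR). With shares of this size called over all transcripts, the members' counts in these comparisons say little about the members as a group.

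Lowered 1 was the lowered member that moved up with the double knockdown in experiment 1. At confluence it had 13.2 and 8.58 CPM in the double knockdown, against 2.52 and 2.20 CPM in wild type (edgeR log2 fold change 2.22, SE 0.304, adjusted p = 8.0e-05). In sub-confluent cells it had 10.9 and 8.31 CPM in the double knockdown and 3.77 and 2.94 CPM in wild type (log2 fold change 1.48, adjusted p = 1.4e-03 by edgeR). Neither pair of groups overlapped.

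Lowered 2 was almost without counts in the double knockdown of experiment 1. At confluence the 2 libraries held 1 count together, against 64 counts in wild type, a ratio of 1.33% once library totals are taken into account (exact 95% interval 0.0331% to 7.67%, counting error only). The edgeR adjusted p was 7.9e-05. In sub-confluent cells the double knockdown held 0 counts, against 62 in wild type, at least 24.1-fold lower with 3 counts over the group as the limit (edgeR adjusted p = 5.9e-05). In experiment 2 the same genotype gave 3.63, 2.40 and 3.56 CPM, or 150 counts in all.

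Lowered 3 fell in the double knockdown at both densities. At confluence it had 0.493 and 0.845 CPM in the double knockdown, against 4.30 and 4.01 CPM in wild type (edgeR log2 fold change -2.57, SE 0.444, adjusted p = 4.7e-04). In sub-confluent cells it had 0.752 and 0.349 CPM in the double knockdown and 3.85 and 2.08 CPM in wild type (log2 fold change -2.48, adjusted p = 1.1e-03 by edgeR). The double knockdown values were lower than those of the YAP5SA+S94A libraries in experiment 2.

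Lowered 6 fell in the double knockdown too, with 8.96 and 8.45 CPM at confluence against 20.1 and 19.2 CPM in wild type (log2 fold change -1.16, adjusted p = 5.4e-04 by edgeR). In sub-confluent cells it had 24.5 and 16.3 CPM in the double knockdown and 30.5 and 27.4 CPM in wild type (log2 fold change -0.55, adjusted p = 3.8e-02 by edgeR). That second call depended on single libraries: without sub-confluent double knockdown replicate 2 the log2 fold change was -0.30 (adjusted p = 3.3e-01 by edgeR), and the adjusted p was 1.8e-01 when wild-type replicate 1 of that density was left out and 7.6e-02 when replicate 2 was (edgeR), and 6.9e-02 with only the groups compared in the fit.

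Lowered 4 had 9.86 and 12.7 CPM in the confluent double knockdown, against 14.6 and 17.3 CPM in wild type (log2 fold change -0.48, adjusted p = 4.9e-02 by edgeR). This call was at the edge. It was lost by DESeq2 (adjusted p = 6.6e-02), without a low-count filter (1.0e-01 by edgeR), and in 11 of the 16 fits that left out 1 library, with adjusted p up to 2.9e-01 without confluent double knockdown replicate 1.

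The single knockdowns were tested in sub-confluent cells, since the rule used their confluent libraries. With p190A knockdown 9.83% of all transcripts passed (4.66% higher, 5.17% lower), together with raised 8 and 1 of the 7 lowered members. Raised 8 rose to 252 and 265 CPM in p190A knockdown cells, against 145 and 134 CPM in wild type (log2 fold change 0.89, adjusted p = 7.5e-05 by edgeR). Raised 3, which passed the filter mainly through the sub-confluent wild-type libraries, had 0.347 and 0.748 CPM, against 3.11 and 1.65 CPM in wild type (log2 fold change -2.07, adjusted p = 1.8e-02 by edgeR). Lowered 6 fell to 10.9 and 12.3 CPM, against 30.5 and 27.4 CPM in wild type (log2 fold change -1.31, adjusted p = 1.1e-03 by edgeR). The raised 3 call was lost without sub-confluent wild-type replicate 1 (1.8e-01 by edgeR) or p190A knockdown replicate 1 (1.0e-01 by edgeR), and with only the groups compared in the fit (1.1e-01 by edgeR).

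With p190B knockdown 18.0% of all transcripts passed in sub-confluent cells (8.80% higher, 9.23% lower), with 2 of the 7 lowered members. Lowered 6 fell to 7.27 and 9.02 CPM in p190B knockdown cells, against 30.5 and 27.4 CPM in wild type (log2 fold change -1.82, adjusted p = 5.6e-05 by edgeR). Raised 3 had 0.654 and 0.622 CPM, with the same limit from the filter, against 3.11 and 1.65 CPM in wild type (log2 fold change -1.87, adjusted p = 2.0e-02 by edgeR). Lowered 1 rose to 7.41 and 5.37 CPM, against 3.77 and 2.94 CPM in wild type (log2 fold change 0.94, adjusted p = 4.0e-02 by edgeR). Raised 3 lost its call in 3 of the 16 fits without 1 library and by DESeq2 (adjusted p = 6.2e-02), and lowered 1 lost it in 8 of the 16 (highest adjusted p 2.9e-01 by edgeR).

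In the confluent single knockdowns, given as a description, lowered 6 averaged 9.07 ± 0.369 CPM with p190A knockdown and 8.68 ± 2.12 CPM with p190B knockdown, against 19.7 ± 0.590 CPM in wild type (SD, n = 2 each). The YAP5SA+S94A mean of 12.1 ± 1.66 CPM (SD, n = 3) lay above both. Raised 8 averaged 169 ± 10.3 CPM with p190A knockdown and 125 ± 6.81 CPM with p190B knockdown, against 88.2 ± 2.20 CPM in wild type (SD, n = 2 each). For these 2 members, levels past those of wild type in the same direction as with YAP5SA+S94A were thus seen in other cells of experiment 1. They were not alone in this. Lowered 3 averaged 1.57 CPM with p190A knockdown and 2.19 CPM with p190B knockdown, against 4.15 CPM in wild type. The means of raised 7 and raised 9 also lay above wild type in both, while lowered 1 and lowered 2 lay on the opposite side. The share over all transcripts was not counted.

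Raised 4 was left out by the low-count filter, although its counts in experiment 1 were uneven. It had 6 and 11 counts in sub-confluent wild-type cells and at most 1 count in any other library of that experiment. In some fits with 1 library left out it passed the filter, through the group where it was high, and calls from those fits are not counted.

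Confluent wild-type and confluent double knockdown cells were measured in both experiments, which shows how far the members moved with the experiment itself. In wild type, 0 of the 9 raised members and 2 of the 7 lowered ones differed by at least 0.7 in L between experiment 2 and experiment 1, against 5.41% of all transcripts. The lowered ones were lowered 1, with a difference of 2.29, and lowered 5, with -0.75. For lowered 1 the gap between the experiments in wild type was larger than its YAP5SA+S94A difference of -1.30. In the double knockdown, 2 of the 9 raised and 5 of the 7 lowered members differed by at least 0.7, against 6.08% of all transcripts. Lowered 2 differed there by 2.01, lowered 3 by 1.99, lowered 5 by -0.91, lowered 6 by 0.88 and lowered 1 by 0.73. The raised ones were raised 8, by -0.73, and raised 9, by 0.84. Lowered 7 stayed under 0.7, with 0.51 in wild type and 0.56 in the double knockdown. Both shares of all transcripts include those with no count, which cannot differ, so shares among detected transcripts would be higher. Experiment 1 and experiment 2 were normalized only by library total here, and no test was made across them.

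**Figure D4:**
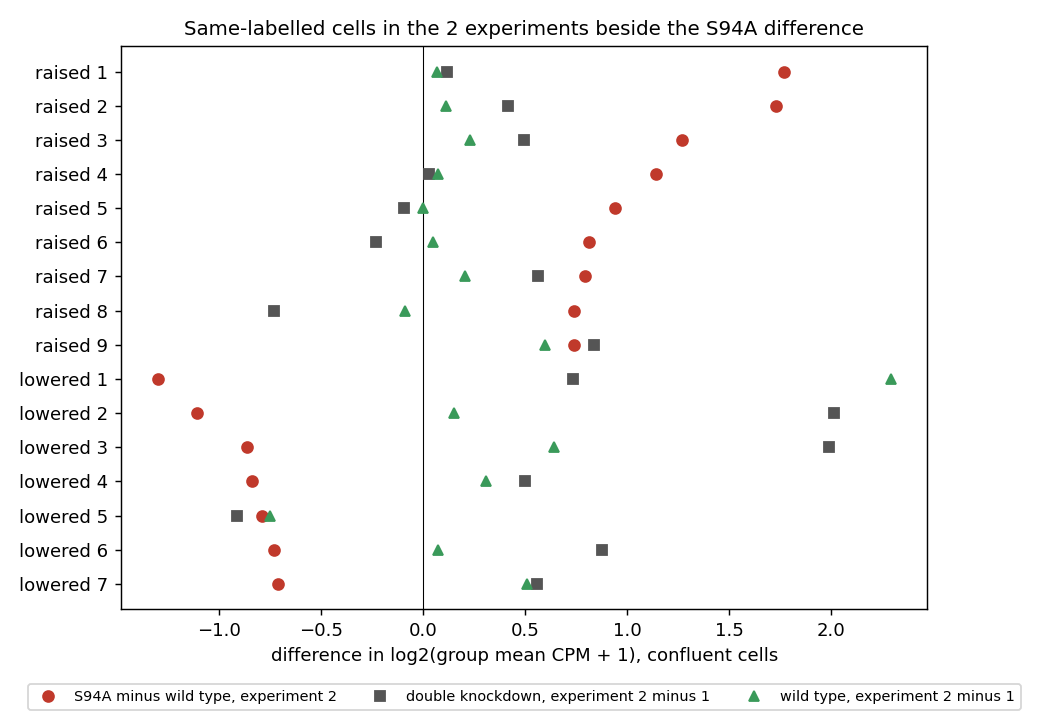
Differences in L on a log2 scale (horizontal axis) for each member (rows): YAP5SA+S94A minus wild type in experiment 2 (circles), and experiment 2 minus experiment 1 for the confluent double knockdown (squares) and confluent wild type (triangles). The wild-type points of the raised members lie between -0.09 and 0.60, while lowered 2 and lowered 3 lie at 2.01 and 1.99 for the double knockdown and lowered 1 at 2.29 for wild type.

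The term that kept the double knockdown within 0.3 of wild type held in experiment 2, where it was applied, and for several lowered members it did not hold in experiment 1. In L, the double knockdown minus wild type difference at confluence for lowered 1 was 0.27 in experiment 2 and 1.82 in experiment 1. For lowered 2 it was 0.04 in experiment 2 and -1.82 in experiment 1. For lowered 3 it was -0.28 in experiment 2 and -1.63 in experiment 1, for lowered 4 it was -0.27 and -0.46, and for lowered 6 it was -0.29 in experiment 2 and -1.09 in experiment 1. Of the raised members, raised 8 alone lay beyond 0.3 in experiment 1, with 0.06 in experiment 2 and 0.70 in experiment 1. In raised 6 and raised 7 the double knockdown and wild type did not overlap in either experiment and lay in opposite directions. The same held for 3.99% of all transcripts, those with no count included. The experiment moved with these differences, and its part in them was not tested.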

How the data were processed

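TR-T10 cells were profiled by mRNA sequencing of single reads with the TruSeq mRNA kit, per the labels' protocols. The authors deposited whole-number read counts for 29884 Ensembl dog transcripts per sample, with no normalization, plus 5 summary rows, which were left out. Per the submitters' processing notes, the tools were HTSeq 0.6.0, STAR 2.3.1n and DESeq2 1.4.5 with CanFam3.1, and no roles are given. Ambiguous reads made up 20.3% to 23.1% of uniquely aligned reads, so transcripts that overlap others are measured from part of their reads. The strand setting of the counting step is not stated by the sources used here.

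CPM was computed over transcript rows and averaged by group, with a pseudocount of 1 before log2. The members, the rule and the comparisons were chosen with earlier results of these data known. Identifiers are printed for the 2 members in each direction with the widest difference among those that did not overlap the other libraries of experiment 2 and reached a group mean of 10 CPM. Gene lists and cell type markers were not run, since they need gene names.

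The 16 libraries of experiment 1 were fitted together with 8 group means in edgeR 4.0.16 (R 4.3.3), with filterByExpr, TMM, robust quasi-likelihood F-tests and Benjamini-Hochberg adjustment over the 12845 transcripts tested. Calls were made at an adjusted p under 0.05. The standard error was derived from the F statistic. The biological coefficient of variation was 0.128. Precision at low counts is limited by counting, and intervals and limits cover counting error only. Libraries with the same replicate number deviated together within a density (12 pairs, r 0.142 to 0.537) but not across densities (16 pairs, r -0.200 to 0.0259), so the replicate number pairs libraries within a density. Alternatives were DESeq2 1.42.0, no filter, fits of only the groups compared, replicate blocks, other pseudocounts, TMM-scaled CPM and leaving out each library. The fitting steps were tested on simulated counts.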

Additional observations from a re-analysis of the deposited data

Results flagged for a closer look

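The density response (confluent minus sub-confluent) of the double knockdown differed from that of wild type for 3 raised members by edgeR's interaction test. The log2 difference was 0.79 for raised 7, 0.53 for raised 8 and 0.87 for raised 9, and each was called with all libraries included. With 1 of the 16 libraries left out in turn the calls were lost in 11, 12 and 11 fits, and 1 of the 3 was called when the other groups were kept out of the fit. In a pair of raised members, the double knockdown lay on opposite sides of wild type at confluence in the 2 experiments. Libraries of the double knockdown and wild type did not overlap in either. This was the case for 3.99% of all transcripts, those with no count included. Raised 6 had a double knockdown minus wild type difference in L of -0.22 in experiment 2 and 0.06 in experiment 1, the second from 3 and 3 counts in the double knockdown against 2 and 2 in wild type. Raised 7 had 0.21 in experiment 2 and -0.14 in experiment 1. The difference between experiments was not tested for either.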

How the results depend on the processing

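The list of members depended on how it was drawn. With TMM-scaled CPM 16 transcripts were raised, among them all 9 raised members, and 8 were lowered, among them 3 of the 7 lowered members. With a mean of at least 1 CPM required, 5 raised members were left. A pseudocount of 0.5 gave 8 raised transcripts, 5 of them members, and 14 lowered, 6 of them members. A pseudocount of 2 gave 10 raised, 7 of them members, and 6 lowered, 5 of them members. Dropping the p190A against p190B term gave 11 raised, 9 of them members, and 11 lowered, 7 of them members. Leaving out 1 library gave 8 to 13 raised and 5 to 10 lowered transcripts; without wild-type replicate 3 of experiment 2 the count was 13 raised and 5 lowered, 3 of them lowered members. A cause was not tested for any of these moves.

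The counts of called members in experiment 1 moved as follows. The shares of all transcripts called under each setting are not given here, so these counts are not read as a result about the members. Fits of only the groups compared called 2 lowered members for density in wild type, 0 for density in the double knockdown, 1 raised member for sub-confluent p190A knockdown and 1 in the interaction. Without the filter, raised members that it had left out were tested too, so counts of raised members are not given for that setting. For sub-confluent p190B knockdown no filter gave 4 lowered members, and DESeq2 called 0 raised. The replicate block gave 2 lowered members for density in wild type, and 2 when it was set within density, the added one being lowered 4; the block within density changed no other call. With 1 library left out, where a lone library is assumed to vary like the other groups, calls were lost for the members named above. Counts of called members are not given for those fits, since raised 4 entered some of them through the group where it was high.

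Of 45 member values, none changed sign in the alternatives that kept all libraries, where 255 comparisons kept their side of the threshold, 11 lost a call and 3 gained one. Without 1 library of the groups compared 143 kept it, 48 lost a call and 9 changed sign, none of the 9 called with all libraries: density in the double knockdown ran from -0.19 to 0.47 for lowered 1 and from -0.36 to 0.11 for raised 7, the interaction from -0.22 to 0.15 for lowered 4, p190A knockdown from -0.11 to 0.029 for lowered 4, and p190B knockdown from -0.16 to 0.026 for raised 7. Members with few counts are limited by depth.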
